A study of Homo sapiens with 12 samples.

Results

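The serine synthesis enzymes PHGDH, PSAT1 and PSPH were followed through 12 mRNA libraries of K562, an established line from a chronic myelogenous leukaemia. They are the 3 enzymes of de novo serine synthesis, chosen by name, and all 3 were found among the 17786 genes of the count table and among the 13598 genes that passed the filter on low counts. The libraries form 3 groups of 4: cells given 2 mM alpha-ketobutyrate (AKB) for 24 h, cells given 2 mM pyruvate for 24 h, and untreated cells. The 3 groups share 1 cell line with no stated genetic change, grown in RPMI-1640 medium with serum, glutamine and antibiotics, so any difference between them refers to that line in that medium. The series title calls AKB and pyruvate electron acceptors, and both treatments are set against the same 4 untreated libraries. Whether the 4 libraries of each group come from separate cultures is not stated in the labels; the p-values therefore refer to the spread among these samples alone, and that spread may be technical. The values are mRNA levels of a bulk culture, in which fewer cells of a type and less RNA per cell cannot be told apart.

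Serine is made from the glycolytic intermediate 3-phosphoglycerate. PHGDH, phosphoglycerate dehydrogenase, oxidises it with NAD+ as the electron acceptor, PSAT1, phosphoserine aminotransferase, moves an amino group from glutamate onto the product and so releases alpha-ketoglutarate, and PSPH, phosphoserine phosphatase, removes the phosphate. The serine feeds glycine, the folate-bound one-carbon units used for nucleotides, sphingolipids, phosphatidylserine and cysteine. Genes of the pathway are known targets of ATF4, a transcription factor whose translation increases when amino acids run short. AKB and pyruvate are neighbouring alpha-keto acids that differ by 1 methylene group in the chain, and lactate dehydrogenase can reduce either of them while oxidising NADH to NAD+.

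The genes lie on 3 chromosomes. In GENCODE 29 on GRCh38, PHGDH (ENSG00000092621) spans chr1:119648411-119744226 on the plus strand with 34 annotated transcripts, PSAT1 (ENSG00000135069) spans chr9:78297143-78330093 on the plus strand with 2, and PSPH (ENSG00000146733) spans chr7:56011051-56051604 on the minus strand with 12. Promoter sequence from RefSeq (GRCh38.p14) matched 2 of the 3, PHGDH and PSAT1. The 250 bases before each RefSeq start are shown because they adjoin the starts of 2 genes whose mRNAs were called lower. PSPH is left out because it had no match, and no regulatory role of these stretches was tested. They cover chr1:119711684-119711933 and chr9:78296875-78297124, both on the plus strand, and the PHGDH stretch lies inside the longer GENCODE locus. They are written 5′ to 3′, with each CCAAT in capitals, the letters of the box that the factor NF-Y is known to bind:
PHGDH: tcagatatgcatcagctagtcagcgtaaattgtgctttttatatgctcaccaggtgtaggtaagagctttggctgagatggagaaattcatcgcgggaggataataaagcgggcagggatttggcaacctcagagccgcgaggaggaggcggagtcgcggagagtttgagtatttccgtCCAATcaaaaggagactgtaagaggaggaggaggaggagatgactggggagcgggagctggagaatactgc
PSAT1: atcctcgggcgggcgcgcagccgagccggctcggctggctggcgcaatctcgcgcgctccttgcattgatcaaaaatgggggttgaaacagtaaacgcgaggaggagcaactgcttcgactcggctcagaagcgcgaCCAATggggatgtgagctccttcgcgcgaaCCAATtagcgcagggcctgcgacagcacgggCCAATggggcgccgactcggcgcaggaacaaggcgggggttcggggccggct

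The 2 promoters differed in composition. The PSAT1 stretch had 65.6% G and C and 30 CpG dinucleotides, and the PHGDH stretch had 51.2% and 11. CCAAT occurred 3 times before PSAT1, with its first base at −113, −83 and −52 from the start, and once before PHGDH, at −71. Of 35116 RefSeq promoter windows of 300 bases (250 before to 50 after the start), 34.6% held at least 1 CCAAT on either strand and 3.3% held at least 3. The other motifs searched on both strands were the C/EBP-ATF response element TGATGNAA (in 3.6% of windows), the CRE palindrome TGACGTCA (1.8%), the E-box CACGTG (7.3%), the antioxidant response element core TGACNNNGC (13.3%) and the GC box GGGCGG (45.0%). The first 4 of these were absent from both windows, and a GC box stood before PSAT1 only. An absent match says only that these letters are not in this window.

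Each library held 15353200 to 21301073 counts. All 11 markers used for K562 (globins of the embryo and fetus, GATA1 and others of the erythroid lineage) stood at 1 CPM or more (counts scaled to the TMM-adjusted library size) in every library, and they summed to 15500–17200 CPM with AKB, 12100–13400 with pyruvate and 14100–15700 in untreated cells. B cell markers, 2 of 4 measured, summed to 1.54–1.85, 0.77–1.57 and 0.661–1.1 CPM in the same order, and 3 of 4 T cell markers to 3.02–3.7, 3.36–3.85 and 2.33–3.02 CPM. The 4 fibroblast markers summed to 9.19–11.6, 7.82–9.33 and 7.38–10.9 CPM, the 4 epithelial ones to 434–504, 487–649 and 423–462 CPM, and 3 of 5 mature myeloid ones to 42.1–52.7, 28.5–36.3 and 30.3–37.6 CPM. The part of these shifts in the results below was not tested. Pyruvate replicates 3 and 4 stood apart by the GC content of genes. The slope of log2 CPM, taken against the average library, was 0.34 and 0.365 per 10 points of GC in these libraries and −0.152 to 0.0048 in the other 10. The fold changes and ratios of the 3 enzymes with pyruvate are therefore also given without these 2 libraries, as are list counts that then moved by over 1.5 times.

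All 3 mRNAs were lower in every AKB and every pyruvate library than in any untreated library. PSAT1, the aminotransferase, had the largest difference of the 3. Summed over the 3 enzymes, the level was 173, 168, 174 and 165 CPM in AKB replicates 1 to 4, 160, 156, 146 and 136 CPM in the pyruvate replicates and 306, 302, 301 and 282 CPM in the untreated ones. Groups that do not overlap, with the treated group lower, occurred for 8.41% of all genes with AKB and 6.0% with pyruvate. Genes called lower at an adjusted p below 0.05 (edgeR's quasi-likelihood test, Benjamini-Hochberg over all genes tested) made up 0.603% of genes with AKB and 0.927% with pyruvate. In each comparison 2 of the 3 enzymes, PHGDH and PSAT1, were called lower, and PSPH was not called.

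**Figure D1:**
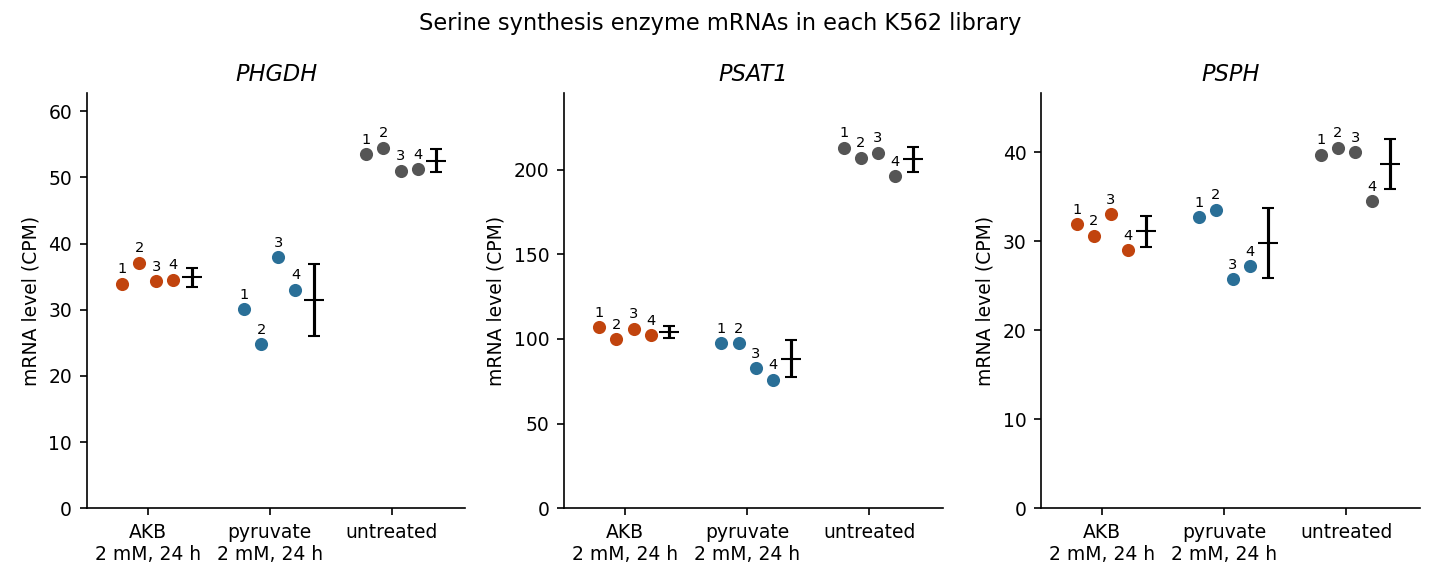
mRNA level in CPM of PHGDH, PSAT1 and PSPH in each library (points, numbered by replicate) with the group mean and SD (n = 4) beside them, for AKB, pyruvate and untreated cells. Every treated library lies below every untreated one; the pyruvate libraries split into replicates 1 and 2 against 3 and 4, with PHGDH higher (37.9 and 33.0 CPM) and PSAT1 and PSPH lower in the second pair.

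PHGDH catalyses the first, NAD+-dependent step. Its mRNA stood at 33.9, 37.1, 34.3 and 34.5 CPM in AKB replicates 1 to 4, at 30.1, 24.8, 37.9 and 33.0 CPM in the pyruvate replicates and at 53.5, 54.5, 51.0 and 51.2 CPM in the untreated ones. The untreated libraries were the highest 4 and closely grouped, and the AKB libraries were closely grouped below them. The pyruvate libraries were more spread, with replicates 1, 2 and 4 below every AKB library and replicate 3 above every AKB library. PHGDH fell 1.5-fold with AKB (34.9 ± 1.43 against 52.5 ± 1.74 CPM in untreated cells, SD, n = 4 each), with a log2 fold change of −0.59 (SE 0.105, edgeR adjusted p = 0.0142). It fell 1.67-fold with pyruvate (31.5 ± 5.48 against 52.5 ± 1.74 CPM), with a log2 fold change of −0.74 (SE 0.105, edgeR adjusted p = 0.0058). The call with AKB was lost when any of 5 libraries was left out, untreated 1 or 2 or AKB 1, 3 or 4, with edgeR adjusted p of 0.0553 to 0.0612 and log2 fold changes of −0.58 to −0.57. That call held at −0.59 in a fit of its 8 libraries alone (edgeR adjusted p = 0.000148) and without pyruvate replicates 3 and 4 (0.00039). The call with pyruvate was lost in a fit of its 8 libraries alone (−0.74, edgeR adjusted p = 0.069). When pyruvate replicates 3 and 4 were left out, the log2 fold change with pyruvate was −0.94 (edgeR adjusted p = 0.000231).

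PSAT1 catalyses the transamination, the step that ties serine synthesis to glutamate. Its mRNA stood at 107, 99.9, 106 and 102 CPM in AKB replicates 1 to 4, at 97.6, 97.3, 82.8 and 75.9 CPM in the pyruvate replicates and at 213, 207, 210 and 196 CPM in the untreated ones. The 3 groups did not overlap, with untreated cells highest and pyruvate cells lowest. PSAT1 fell 1.99-fold with AKB (104 ± 3.64 against 206 ± 7.32 CPM in untreated cells), with a log2 fold change of −0.99 (SE 0.081, 95% interval −1.17 to −0.81, edgeR adjusted p = 0.000378). It fell 2.33-fold with pyruvate (88.4 ± 10.8 against 206 ± 7.32 CPM), with a log2 fold change of −1.22 (SE 0.0814, 95% interval −1.4 to −1.05, edgeR adjusted p = 3.41e-05). In both comparisons PSAT1 had the smallest p of all 13598 genes, and by lowest log2 fold change it ranked 65 with AKB and 54 with pyruvate. Its call held under all 24 alternatives in each comparison, and without pyruvate replicates 3 and 4 the log2 fold change with pyruvate was −1.08 (edgeR adjusted p = 3.12e-06).

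PSPH catalyses the last, irreversible step. Its mRNA stood at 31.9, 30.6, 33.0 and 29.0 CPM in AKB replicates 1 to 4, at 32.7, 33.5, 25.7 and 27.2 CPM in the pyruvate replicates and at 39.7, 40.5, 40.0 and 34.5 CPM in the untreated ones. Untreated replicate 4, at 34.5 CPM, lay below the other untreated libraries and just above the highest treated one, pyruvate replicate 2 at 33.5 CPM. The difference between AKB and untreated cells was 1.24-fold (31.1 ± 1.73 against 38.7 ± 2.81 CPM, log2 −0.31, SE 0.0961), and it missed the threshold (edgeR adjusted p = 0.147, unadjusted p = 0.00638). The difference between pyruvate and untreated cells was 1.3-fold (29.8 ± 3.92 against 38.7 ± 2.81 CPM, log2 −0.38, SE 0.096) and also missed it (edgeR adjusted p = 0.0592, unadjusted p = 0.00183). The 95% intervals, −0.52 to −0.11 with AKB and −0.59 to −0.17 with pyruvate, lie below 0 but are not adjusted over genes. Without pyruvate replicates 3 and 4, whose spread enters every test, PSPH was called lower with AKB (log2 −0.32, edgeR adjusted p = 0.0134), while with pyruvate its log2 fold change was −0.22 (edgeR adjusted p = 0.235).

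**Figure D2:**
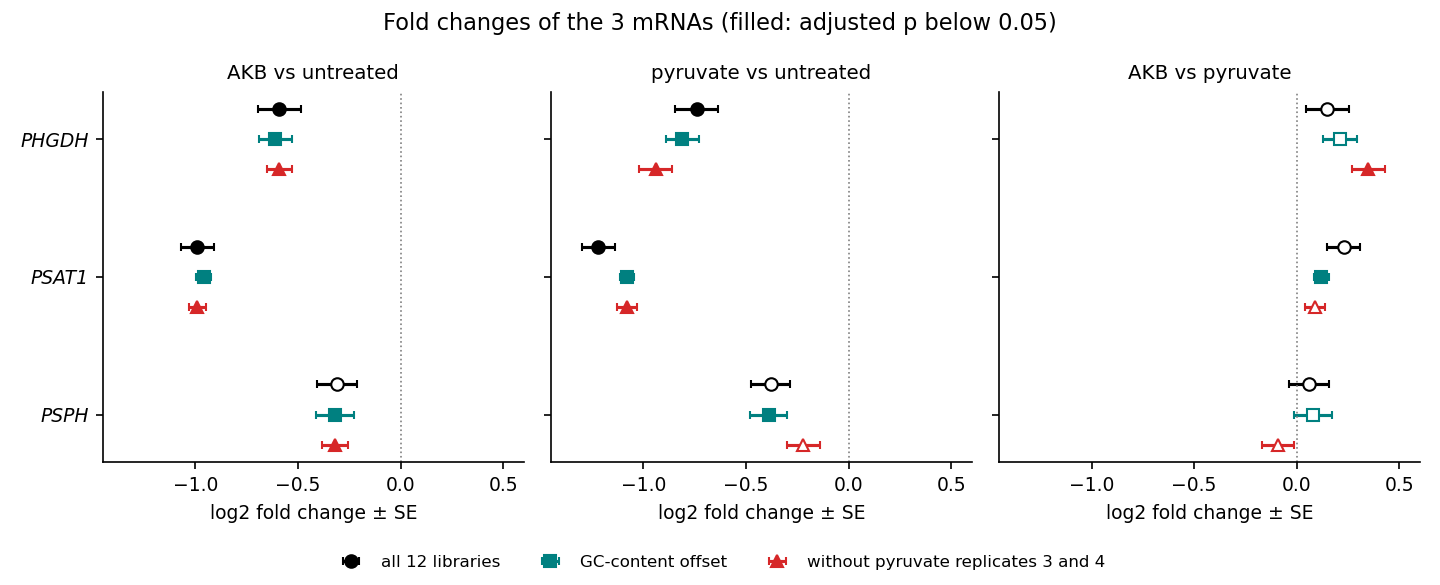
log2 fold change ± SE of the 3 mRNAs in the 3 comparisons, from all 12 libraries (circles), with an offset for GC content (squares) and without pyruvate replicates 3 and 4 (triangles); filled symbols have an adjusted p below 0.05. PSAT1 lies between −1.22 and −0.96 against untreated cells in these fits and is called in each; against untreated cells PSPH is the member whose call differs between the fits shown, and between AKB and pyruvate the calls of PHGDH and PSAT1 do.

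The 2 keto acids were given at the same dose and time, so their libraries can be compared directly. None of the 3 mRNAs differed between them at an adjusted p below 0.05 (3.13% of all genes did, in either direction). PSAT1 was 1.18-fold higher with AKB than with pyruvate, with no overlap between the groups (104 ± 3.64 against 88.4 ± 10.8 CPM, log2 0.23, 95% interval 0.06 to 0.41, edgeR adjusted p = 0.113). Non-overlapping groups with AKB higher occurred for 7.08% of all genes. For PHGDH the groups overlapped (34.9 ± 1.43 against 31.5 ± 5.48 CPM, log2 0.15, 95% interval −0.08 to 0.38, edgeR adjusted p = 0.388), as they did for PSPH (31.1 ± 1.73 against 29.8 ± 3.92 CPM, log2 0.06, 95% interval −0.15 to 0.27, edgeR adjusted p = 0.699). These intervals do not show that AKB and pyruvate act alike on either gene. Without pyruvate replicates 3 and 4 the estimates became 0.35 for PHGDH (edgeR adjusted p = 0.0365), 0.09 for PSAT1 (0.319) and −0.09 for PSPH (0.557), so PHGDH passed, the PSAT1 difference shrank and PSPH changed sign.

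The 2 pyruvate libraries that stood apart by GC content also differed from the other 2 in all 3 mRNAs. The longest annotated transcripts have 42.28% G and C for PSAT1, 49.77% for PSPH and 52.3% for PHGDH. After a correction of each library for GC content, the pyruvate values of PSAT1 were 94.3, 92.1, 97.6 and 90.1 CPM, and their coefficient of variation fell to 3.44%, against 12.3% uncorrected. AKB cells stood at 102 ± 2.72 CPM and untreated cells at 197 ± 2.49 CPM on that scale. For PHGDH the corrected pyruvate values were 31.0, 25.0, 35.3 and 30.5 CPM and for PSPH 33.2, 33.0, 25.4 and 26.8 CPM, and their coefficients of variation were 13.8% and 13.7%, against 17.4% and 13.2% uncorrected. With the same correction in the edgeR fit, the PSAT1 difference between AKB and pyruvate was 0.12 (edgeR adjusted p = 0.0415). What sets pyruvate replicates 3 and 4 apart was not tested.

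**Figure D3:**
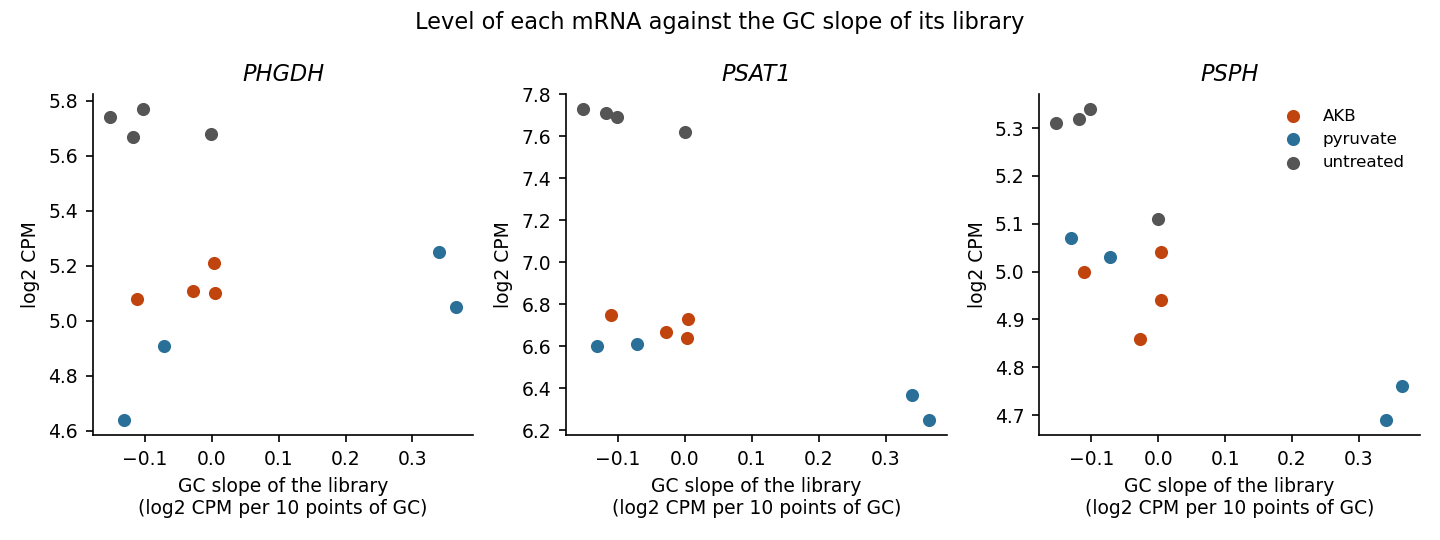
log2 CPM of each mRNA (vertical axis) against the slope of log2 CPM on gene GC content in the same library (horizontal axis, per 10 percentage points), 1 point per library, coloured by group. The 2 pyruvate libraries at slopes of 0.34 and 0.365 carry the lowest PSAT1 and PSPH levels and the highest PHGDH levels of their group.

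The 3 mRNAs did not move by equal amounts in the point estimates, and ratios within a library show this without any library scaling. PSAT1 over PHGDH was 3.17, 2.7, 3.1 and 2.94 in AKB replicates 1 to 4, 3.25, 3.92, 2.18 and 2.3 in the pyruvate replicates and 3.98, 3.79, 4.11 and 3.83 in the untreated ones. The AKB libraries lay wholly below the untreated ones, and pyruvate replicate 2 lay among the untreated ones. The mean log2 ratio was 1.57 ± 0.104 with AKB and 1.97 ± 0.0543 in untreated cells, a difference of −0.40 (two-sided exact permutation p = 0.0286, adjusted over 9 ratio tests 0.0514). With pyruvate the mean log2 ratio was 1.5 ± 0.403, a difference of −0.47 from untreated cells (exact permutation p = 0.0857, adjusted p = 0.129), and without pyruvate replicates 3 and 4 the difference was −0.14. With 4 libraries a group, 0.0286 is the smallest p this test can give, and none of the 9 ratio tests passed after adjustment. At that floor no single ratio could have passed by itself, whatever its size, so the adjusted values do not measure how large a difference was.

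PSPH over PSAT1 separated the treated from the untreated libraries most widely. It was 0.297, 0.306, 0.31 and 0.285 with AKB, 0.335, 0.344, 0.31 and 0.358 with pyruvate and 0.187, 0.196, 0.191 and 0.176 in untreated cells. No treated library reached down to the untreated range. The mean log2 ratio was −1.74 ± 0.0537 with AKB and −1.57 ± 0.0868 with pyruvate, against −2.42 ± 0.0657 in untreated cells, differences of 0.68 and 0.85 (exact permutation p = 0.0286 and adjusted p = 0.0514 for each). PSPH over PHGDH was 0.28 log2 units higher with AKB than in untreated cells (−0.17 ± 0.112 against −0.44 ± 0.0911, exact permutation p = 0.0286, adjusted p = 0.0514). The authors' deposited fold changes for untreated over AKB do not show this difference, at log2 0.40 for PSPH and 0.38 for PHGDH. With pyruvate the ratio of PSPH over PHGDH overlapped the untreated range (−0.07 ± 0.437, a difference of 0.37, exact permutation p = 0.171, adjusted p = 0.22), with replicates 1 and 2 above replicates 3 and 4. With those last 2 libraries left out the difference from untreated cells was 0.72 for PSPH over PHGDH and 0.86 for PSPH over PSAT1, and 2 libraries against 4 cannot go below an exact permutation p of 0.0667.

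**Figure D4:**
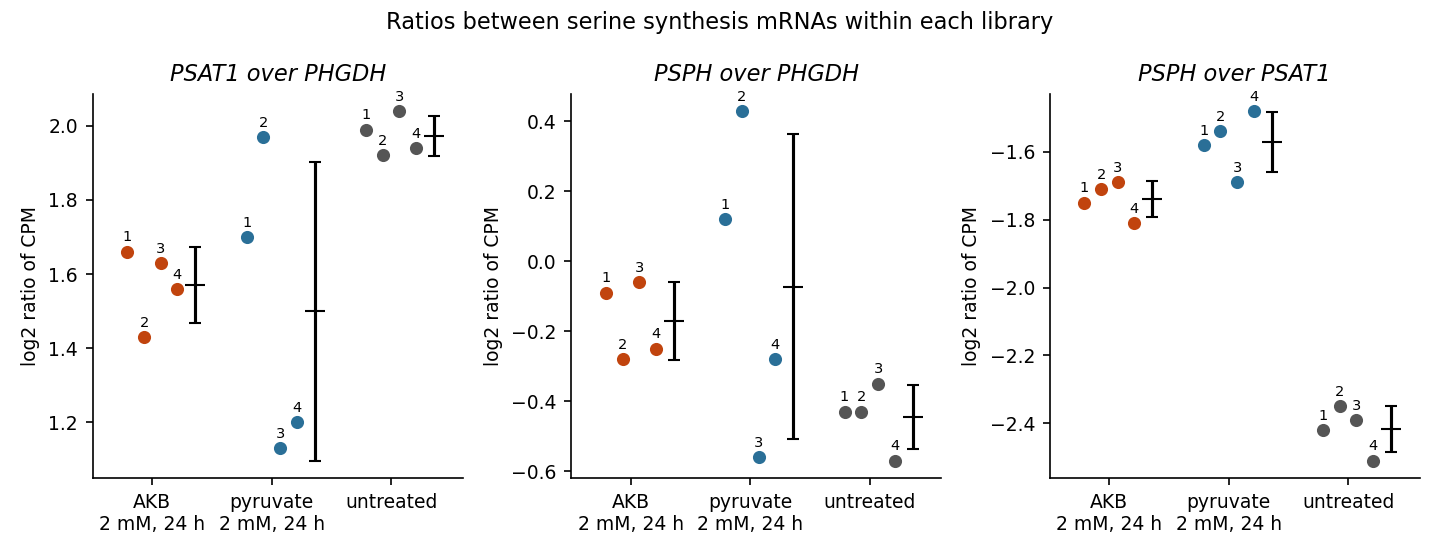
log2 ratio of CPM between pairs of the 3 mRNAs in each library (points, numbered by replicate) with the group mean and SD (n = 4). PSPH over PSAT1 lies between −1.81 and −1.48 in the treated libraries and below −2.3 in the untreated ones; the 2 ratios to PHGDH split the pyruvate group by replicate pair.

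Per kilobase of the longest protein-coding transcript, PSAT1 was the most abundant of the 3 in each group, at 47.5 ± 1.66 CPM per kb with AKB, 40.4 ± 4.95 with pyruvate and 94.3 ± 3.34 in untreated cells. PHGDH stood at 13.5 ± 0.554, 12.2 ± 2.12 and 20.3 ± 0.671 CPM per kb and PSPH at 14.3 ± 0.795, 13.7 ± 1.8 and 17.8 ± 1.29 CPM per kb in the same order of groups. The order of PHGDH and PSPH depended on the transcript used: with the shortest RefSeq-matched transcript PHGDH stood at 16.7 ± 0.684, 15.0 ± 2.61 and 25.1 ± 0.828 CPM per kb, above PSPH in each group (14.6 ± 0.812, 14.0 ± 1.84 and 18.2 ± 1.32). The SD of log2 CPM for PHGDH was 0.0581 with AKB, 0.256 with pyruvate and 0.0475 in untreated cells, at percentiles 20.9, 58.9 and 13.6 among genes of like level. For PSAT1 it was 0.0506, 0.18 and 0.0518, at percentiles 28.7, 39.8 and 35.8 in the same order of groups. For PSPH it was 0.0808, 0.191 and 0.109, at percentiles 37.5, 41.2 and 59.2. PHGDH with pyruvate and PSPH in untreated cells thus varied more than the median gene of like level. The untreated PSPH spread includes replicate 4, which lay below the rest at 34.5 CPM.

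The genes whose profile over the 12 libraries lay nearest to each enzyme were ranked by the root mean square difference of log2 CPM after each gene's mean was subtracted, over 10015 genes. Nearest to PSAT1 were ASNS, asparagine synthetase (0.0649), the cystine carrier gene SLC7A11 (0.132), CTH, cystathionine gamma-lyase (0.151), PMAIP1, which encodes the cell death protein NOXA (0.167), and ALDH1L2, a mitochondrial folate enzyme (0.173), against a median of 0.546 over all genes. Nearest to PHGDH were PCK2, mitochondrial phosphoenolpyruvate carboxykinase (0.109), the pseudokinase TRIB3 (0.119), the serine carrier SLC1A4 (0.136), SLC3A2, the heavy chain of several amino acid carriers (0.156), and the cysteinyl-tRNA synthetase CARS1 (0.162), with a median of 0.385. Nearest to PSPH were ZNF268 (0.0524), PLSCR1 (0.053), DTL (0.054), MIS12 (0.0544) and ELF1 (0.0579), with a median of 0.234. The median over all genes was lowest for PSPH, so a short distance to it is common.

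The 3 enzymes were not one another's nearest genes. PHGDH ranked 19 and PSPH 117 among the genes nearest to PSAT1, and PSAT1 ranked 367 and PSPH 187 among those nearest to PHGDH. From PSPH, PHGDH ranked 6198 and PSAT1 7883. After the GC correction, which was added after the data had been seen, PSAT1 ranked 19 from PHGDH and PHGDH 8 from PSAT1, while PHGDH and PSAT1 ranked 6396 and 8405 from PSPH. The nearest genes changed too: CTH, SLC7A11, ALDH1L2, SLC1A4 and SESN2 were then nearest to PHGDH, SLC7A11, ASNS, PCK2, CTH and ATF3 to PSAT1, and NARS1, WDR83OS, MUL1, GRB10 and KLHL11 to PSPH. Of the 5 nearest without the correction, SLC1A4 was still among the 5 for PHGDH, ASNS, SLC7A11 and CTH for PSAT1, and no gene for PSPH. The distance depends on the size of a change as well as its direction, so a gene that moved in step by another amount can rank far away. These ranks are descriptions over 12 libraries that share their untreated group.

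Downstream of the pathway, the enzymes that turn serine into glycine and one-carbon units were lower in part. Of 20 genes listed, 17 were tested. With AKB 3 fell, 0 rose and all 17 estimates were below 0 (median log2 −0.13, against 0.01 over all genes, of which 0.603% were called lower and 1.37% higher). With pyruvate 3 fell, 0 rose and 13 were below 0 (median −0.18, against −0.01 over all genes, of which 0.927% were called lower and 1.02% higher). Without pyruvate replicates 3 and 4 the numbers lower were 7 and 5, and with pyruvate they were 5 without replicate 1 alone and 7 without replicate 2 alone. Over 25 settings the number lower ran from 2 to 8 with AKB and from 1 to 7 with pyruvate. With all libraries the 3 called lower in each comparison were ALDH1L2, MTHFD1L and MTHFD2, which are among the mitochondrial folate enzymes listed. ALDH1L2 averaged 23.6 ± 1.31 CPM with AKB, 16.4 ± 2.11 with pyruvate and 36.4 ± 2.37 in untreated cells (log2 −0.62 and −1.16, edgeR adjusted p = 0.00562 and 9.58e-05). It was also the only member of this list called higher with AKB than with pyruvate (log2 0.53, edgeR adjusted p = 0.0159), while TYMS, thymidylate synthase, was lower (−0.25, edgeR adjusted p = 0.0437, a call not made without pyruvate replicates 3 and 4); over all genes 1.94% were called higher and 1.19% lower in that comparison. MTHFD2 averaged 245 ± 13.3 CPM with AKB, 228 ± 28.3 with pyruvate and 323 ± 8.59 in untreated cells (edgeR adjusted p = 0.0288 and 0.014).

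SHMT2, the mitochondrial hydroxymethyltransferase that converts serine to glycine, averaged 171 ± 9.37 CPM with AKB, 188 ± 26 with pyruvate and 206 ± 5.55 in untreated cells and was called in neither comparison (edgeR adjusted p = 0.172 and 0.306). Its cytosolic counterpart SHMT1 had 1 low library in each group and ranged over 8.4–34.3, 4.44–38.3 and 5.49–32.7 CPM in the same order. GLDC, of the glycine cleavage system, was not analysed here. Of 13 tested genes for other uses and the breakdown of serine, 0 were called with AKB (DESeq2's Wald test called 1 of the 13, and 2 had an unadjusted edgeR p below 0.05) and 1 with pyruvate: SEPSECS, which makes selenocysteinyl-tRNA, fell to 21.7 ± 3.83 CPM, against 34.2 ± 1.37 CPM in untreated cells (edgeR adjusted p = 0.0206). Over all genes 0.603% were called lower and 1.37% higher with AKB, and 0.927% and 1.02% with pyruvate. With 13 genes, counts of 0 and 1 therefore say little about this list, whose medians were −0.01 and −0.06. The count with pyruvate was 0 without untreated 1, 2 or 3 or pyruvate 3, and 2 without pyruvate 1 or 2; without pyruvate replicates 3 and 4 together it was 2 in each comparison. The serine dehydratase-like gene SDSL stood at 1.52 ± 0.289, 1.89 ± 0.371 and 1.52 ± 0.201 CPM with AKB, pyruvate and no treatment. SPTLC2, a subunit of the enzyme that joins serine to palmitoyl-CoA, was higher with AKB than with pyruvate (97.6 ± 5.16 against 77.0 ± 7.21 CPM, edgeR adjusted p = 0.044).

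Of 9 tested carriers of serine and related neutral amino acids, 1 fell with AKB and 2 with pyruvate, where 0.603% and 0.927% of all genes were called lower, and the list medians were −0.21 and −0.22. SLC1A4, which carries serine and alanine, averaged 52.9 ± 2.72 CPM with AKB, 49.7 ± 1.84 with pyruvate and 77.0 ± 0.625 in untreated cells (log2 −0.54 and −0.63, edgeR adjusted p = 0.000914 and 0.000219). Without pyruvate replicates 3 and 4 the numbers lower were 4 and 2; the count with AKB was 2 without any 1 pyruvate library, and that with pyruvate was 1 without untreated 1, 2 or 3 or pyruvate 4 and 4 without pyruvate 2. SLC38A1 was called with pyruvate only (342 ± 52.4 against 488 ± 23.6 CPM in untreated cells, edgeR adjusted p = 0.0206); with AKB it stood at 374 ± 12.4 CPM (edgeR adjusted p = 0.0575), and the difference between AKB and pyruvate was not called (edgeR adjusted p = 0.391).

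A list of glycolytic genes, on the route to 3-phosphoglycerate and beyond it, was higher in part. Of 17 tested, 2 rose and 0 fell with AKB, and 4 rose and 1 fell with pyruvate (medians 0.03 and 0.21), where 1.37% and 1.02% of all genes were called higher and 0.603% and 0.927% lower. PKM, pyruvate kinase, which acts beyond 3-phosphoglycerate, averaged 609 ± 25.3 CPM with AKB, 635 ± 40.2 with pyruvate and 500 ± 7.1 in untreated cells (edgeR adjusted p = 0.0196 and 0.0115), and the aldolase gene ALDOC, on the route to it, averaged 73.5 ± 4.99, 75.8 ± 4.5 and 57.7 ± 2.51 CPM (edgeR adjusted p = 0.0224 and 0.0206). GAPDH (2220 ± 234 against 1780 ± 74.1 CPM in untreated cells, edgeR adjusted p = 0.0406) and the phosphoglucose isomerase gene GPI (418 ± 60.8 against 310 ± 27.3 CPM, edgeR adjusted p = 0.0485), also on that route, rose with pyruvate, and MINPP1, an inositol polyphosphate phosphatase, fell (68.6 ± 7.34 against 91.3 ± 6.17 CPM, edgeR adjusted p = 0.0317). The 2 enzymes on either side of 3-phosphoglycerate, PGK1 and PGAM1, were called in neither comparison (PGK1 452 ± 30.4, 454 ± 39.2 and 468 ± 21.4 CPM; PGAM1 347 ± 8.85, 362 ± 25.4 and 329 ± 5.63 CPM with AKB, pyruvate and no treatment). Without pyruvate replicates 3 and 4 the pyruvate count was 1 higher and 0 lower, and 1 gene was called lower with AKB. With 1 library left out, the number higher with pyruvate was 0 without untreated 1, 2 or 3, 1 without pyruvate 3 or 4, 2 without any 1 AKB library, 9 without pyruvate 1 and 10 without pyruvate 2; with AKB it was 0 without untreated 1, 2 or 3 or AKB 2 or 4, and 1 without untreated 4 or AKB 1 or 3. The enolase gene ENO1 was lower with AKB than with pyruvate (2340 ± 72 against 2740 ± 176 CPM, edgeR adjusted p = 0.0369), as was the hexokinase gene HK1 (671 ± 24.7 against 815 ± 86.2 CPM, edgeR adjusted p = 0.0487), and neither call was made without pyruvate replicates 3 and 4.

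Of 11 tested genes for glutamate supply and transaminases, which provide and compete for the amino donor of PSAT1, 1 rose with AKB and 2 fell with pyruvate, against 1.37% of all genes called higher with AKB and 0.927% called lower with pyruvate. IDH2, mitochondrial isocitrate dehydrogenase, averaged 69.1 ± 3.02 CPM with AKB and 47.7 ± 2.25 CPM in untreated cells (log2 0.54, edgeR adjusted p = 0.00854). GPT2, mitochondrial alanine transaminase, averaged 8.52 ± 0.843 CPM with pyruvate and 12.8 ± 1.5 CPM in untreated cells (edgeR adjusted p = 0.0361), and BCAT1, the cytosolic branched-chain transaminase, 337 ± 77.4 and 507 ± 35.3 CPM (edgeR adjusted p = 0.045). Without pyruvate replicates 3 and 4 neither of the pyruvate calls was made, 1 gene was called lower with AKB and 1 higher with AKB than with pyruvate, and with 1 library left out the number lower with pyruvate ran from 0 (untreated 1, 2 or 3, AKB 2, 3 or 4, or pyruvate 3 or 4) to 4 (pyruvate 2).

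Among 18 tested regulators of serine synthesis genes, the same 4 fell in both comparisons and 0 rose (medians −0.13 and −0.18), where 0.603% and 0.927% of all genes were called lower. ATF4 averaged 241 ± 4.03 CPM with AKB, 259 ± 24.2 with pyruvate and 341 ± 11.3 in untreated cells (log2 −0.50 and −0.40, edgeR adjusted p = 0.0023 and 0.0174). ATF3, a related factor induced by stress, averaged 8.45 ± 0.404, 9.16 ± 0.69 and 16.3 ± 0.995 CPM (log2 −0.95 and −0.83, edgeR adjusted p = 0.000914 and 0.00114). CEBPG, a C/EBP factor that pairs with ATF4, and TRIB3 also fell (log2 −0.50 and −0.46 with AKB, −0.53 and −0.54 with pyruvate). Other regulators of the pathway were not called: NFE2L2, which encodes NRF2, averaged 110 ± 3.59, 111 ± 23.7 and 142 ± 5.34 CPM (edgeR adjusted p = 0.186 and 0.101), MYC 248 ± 19.5, 260 ± 34.4 and 238 ± 19.2 CPM (0.871 and 0.378) and CEBPB, a C/EBP factor, 25.4 ± 5.9, 36.4 ± 16.2 and 30.8 ± 5.54 CPM (0.757 and 0.55). Without pyruvate replicate 2 the number lower with pyruvate was 7, and over 25 settings it ran from 2 to 7. Without pyruvate replicates 3 and 4 together 1 regulator was called higher with AKB, and between AKB and pyruvate 1 was called higher and 1 lower.

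Of the 18 tested genes of the amino acid response outside serine metabolism, 14 fell with AKB and 13 with pyruvate, and 0 rose (medians −0.62 and −0.51), where 0.603% and 0.927% of all genes were called lower. The count with pyruvate was 7 without untreated 1, 8 without untreated 2 or 3 and 5 in a fit of its 8 libraries alone, and without pyruvate replicates 3 and 4 the counts were 16 and 14. ASNS averaged 206 ± 2.33 CPM with AKB, 169 ± 26.1 with pyruvate and 385 ± 26.9 in untreated cells (log2 −0.90 and −1.19, edgeR adjusted p = 0.000914 and 9.58e-05), next to −0.99 and −1.22 for PSAT1. CTH, which releases cysteine from cystathionine, averaged 19.4 ± 1.45, 15.3 ± 0.936 and 31.6 ± 1.98 CPM (log2 −0.70 and −1.05) and was also higher with AKB than with pyruvate (log2 0.34, edgeR adjusted p = 0.0461). The tryptophanyl-tRNA synthetase gene WARS1 averaged 202 ± 10.6, 209 ± 4.47 and 289 ± 11.2 CPM (log2 −0.52 and −0.47), and SLC7A11 60.5 ± 3.59, 43.6 ± 8.4 and 103 ± 8.13 CPM (log2 −0.77 and −1.25). Of the serine synthesis enzymes, PSAT1 lay further from 0 than the median of this list in both comparisons, PHGDH (−0.59 and −0.74) only with pyruvate, and PSPH (−0.31 and −0.38) in neither.

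**Figure D5:**
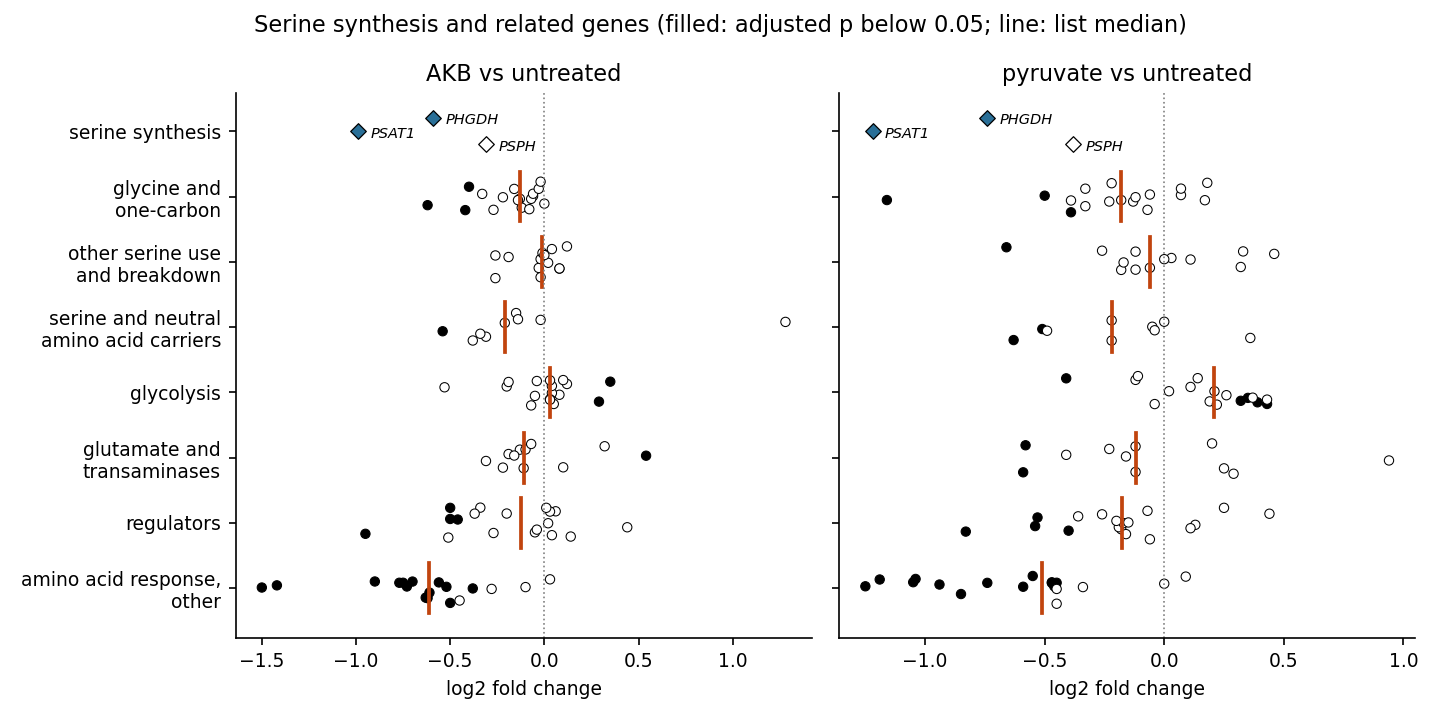
log2 fold change of each tested gene in 7 lists around serine synthesis and of the 3 enzymes (diamonds), with AKB and with pyruvate against untreated cells; filled symbols have an adjusted p below 0.05 and vertical lines are list medians. The amino acid response list has its median at −0.62 and −0.51, and the medians of the other lists lie between −0.22 and 0.21.

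Of the 5 analysed genes next to the 3 enzymes, picked from the annotation after values had been seen, ZNF697 was called with pyruvate and CCT6A, NIPSNAP2, CEP78 and TLE4 were called in neither comparison with untreated cells. Distances are between GENCODE loci unless stated. CCT6A, a chaperonin subunit gene, starts 26 bp from PSPH and is transcribed the other way; it averaged 625 CPM with AKB, 639 with pyruvate and 666 in untreated cells (log2 −0.09 and −0.06, edgeR adjusted p = 0.755 and 0.666). NIPSNAP2, 10870 bp from PSPH on the other side, averaged 88.5, 76.4 and 99.8 CPM in the same order (log2 −0.17 and −0.39, edgeR adjusted p = 0.63 and 0.0958), next to −0.31 and −0.38 for PSPH. CEP78, 17453 bp from PSAT1, had log2 fold changes of −0.06 and −0.20 (edgeR adjusted p = 0.903 and 0.267), and TLE4, 1241680 bp away on the other side, 0.11 and −0.10 (0.764 and 0.548). ZNF697, 64161 bp from the RefSeq start of PHGDH and 638 bp from the edge of the longer GENCODE locus, was called lower with pyruvate (12.1 against 18.1 CPM in untreated cells, log2 −0.59, edgeR adjusted p = 0.0206) and not with AKB (15.1 CPM, −0.26, edgeR adjusted p = 0.291). GENCODE 29 holds 4 pseudogenes of PSAT1 and 1 of PSPH, with 80.8% to 95.6% identity to the member's transcript over the aligned bases; they were not analysed here, and reads from them that were counted for PSAT1 or PSPH cannot be told apart.

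In the authors' deposited table of comparisons, PSAT1 also had the smallest p of all genes for untreated over AKB (log2 0.98, adjusted p = 1.3e-42) and for untreated over pyruvate (1.17, adjusted p = 1.07e-60), where a positive value means lower with treatment. The authors' deposited table gave PSPH 0.40 (adjusted p = 0.0162) and 0.46 (adjusted p = 0.00238), both past 0.05. For PHGDH the authors' deposited table gave 0.72 for untreated over pyruvate (adjusted p = 7.96e-07) and 0.38 for untreated over AKB (adjusted p = 0.0378). DESeq2 on the deposited counts gave −0.72 for pyruvate and −0.59 for AKB against untreated cells, so the AKB value differs from the authors' by 0.21 log2 units. That is at percentile 95.0 of the absolute differences over 10345 genes, whose median was 0.0329, and its cause was not tested. For AKB over pyruvate the authors' deposited table gave 0.34 for PHGDH, 0.18 for PSAT1 and 0.06 for PSPH (adjusted p = 0.0585, 0.0732 and 0.82).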

How the data were processed

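The members and the gene lists were chosen with earlier results of these data known. Libraries were poly(A)-selected, per the labels' protocols. The count table deposited by the authors holds estimated counts, 1 value per gene and library, from Salmon 1.2.1, a tool named in the submitters' processing notes beside DESeq2 1.26.0 and R 3.6.3. The sources used here do not state the genome build or annotation. The authors' deposited comparison tables have, per the file headers, baseMean (a mean normalised signal over all libraries), the log2 fold change and its SE, a test statistic (a score) and p-values; they are quoted only as the authors' own.

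Counts were whole, so rounding changed 0 values. Genes were kept by filterByExpr (minimum count 10), scaled by TMM and fitted over all 12 libraries with 1 term per group by edgeR 4.0.16's quasi-likelihood test in R 4.3.3, with Benjamini-Hochberg adjustment over 13598 genes. Standard errors are the log2 fold change over the square root of F. Ratios between members were compared by two-sided exact permutation tests over libraries. Symbols were matched for 95.2% and GC content for 95.0% of identifiers, from GENCODE 29 on GRCh38. GC content was corrected per library by lowess (span 0.3). Log2 CPM used a prior count of 0.5. The edgeR fit was tested on simulated counts with 200 changed genes. These counts held no difference between libraries by GC content, so the test does not cover the split seen in pyruvate replicates 3 and 4. The alternatives replaced TMM by library size alone or by the size factors of DESeq2, dropped the filter or set it at a mean of 1 CPM, or used DESeq2 1.42.0's Wald test, limma 3.58.1's voom, a replicate block, GC offsets, the 8 libraries of a comparison alone, or fewer libraries. Total counts of 15353200 to 21301073 gave 413 or more counts of each enzyme per library. The number of libraries and the spread among them limit the precision. The SE of PHGDH with AKB was 0.105 over 12 libraries and 0.062 without pyruvate replicates 3 and 4.

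Besides the 3 enzymes, the genes named are up to 4 called members of each list with the smallest adjusted p in each comparison, 13 genes fixed by name, and per enzyme the 5 genes with the most similar profile among those with a mean of at least 5 CPM. Neighbouring genes were chosen after values were seen. One marker of the erythroid list is not reported here.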

Additional observations from a re-analysis of the deposited data

Results flagged for a closer look

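One library stood apart from the other 3 of its group by the gap test used (Dixon's test at 95%, applied to 18 sets of 4 libraries, the levels and ratios of the 3 enzymes in each group). PSPH stood at 34.5 CPM in untreated replicate 4, against 39.7, 40.5 and 40.0 CPM in untreated replicates 1 to 3. Chance alone marks about 1 set in 20. Without this library the log2 fold changes of PSPH were −0.37 with AKB and −0.43 with pyruvate (edgeR adjusted p = 0.128 and 0.0587), on the same side of the threshold as with it.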

How the results depend on the processing

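The direction of all 6 comparisons of PHGDH, PSAT1 and PSPH with untreated cells held under the 24 alternatives each, and so did both PSAT1 calls. PSPH passed with AKB at −0.32 under DESeq2's Wald test (adjusted p = 0.0467, with or without independent filtering), the GC-content offset (0.0494), that offset with the replicate block (0.0431), the 8 libraries alone (0.0164) and without pyruvate 3 and 4 (0.0134). PSPH passed with pyruvate under DESeq2 (−0.37, adjusted p = 0.00751, or 0.00843 without filtering) and the GC-content offset in edgeR (−0.39, 0.0212). It also passed with the replicate block in edgeR, with that offset (−0.40, 0.0159) or alone (−0.38, 0.0437). PHGDH missed with pyruvate in the 8 libraries alone (−0.74, 0.069). Between AKB and pyruvate, PHGDH passed without pyruvate 3 and 4 (0.35). PSAT1 passed there at 0.12 with the offset (0.0415) or with the offset and the replicate block (0.0404). In the same comparison PSPH turned to −0.09 without pyruvate 3 and 4, and PSAT1 over PHGDH turned to −0.10 with the offset and −0.26 without those libraries. The causes were not tested.

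With each library left out, the log2 fold changes ran, for PHGDH, from −0.62 to −0.57 with AKB, −0.83 to −0.64 with pyruvate and 0.05 to 0.24 between them; for PSAT1, from −1.01 to −0.97, −1.27 to −1.15 and 0.15 to 0.28 (passing without pyruvate 1 or 2, adjusted p = 0.0398 and 0.0404); and for PSPH, from −0.37 to −0.28, −0.44 to −0.30 (passing without pyruvate 1 or 2, 0.0205 and 0.0213) and −0.01 to 0.13. Log2 ratio differences ran, for PSAT1 over PHGDH, from −0.43 to −0.36, −0.63 to −0.35 and −0.05 to 0.23; for PSPH over PHGDH, from 0.23 to 0.31, 0.20 to 0.54 and −0.26 to 0.07; and for PSPH over PSAT1, from 0.65 to 0.70, 0.82 to 0.89 and −0.21 to −0.14. The ratio tests that passed did so at an adjusted p of 0.0429 without pyruvate 2 or 3. One of them, PSPH over PSAT1 between AKB and pyruvate, differed by −0.17 with all libraries (exact permutation p = 0.0286). With the GC-content offset that difference was −0.04 (exact permutation p = 0.8).

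Same-numbered libraries showed no clear common deviation (correlations of −0.188 to 0.27 between groups). With 4 libraries a group this check cannot exclude a pairing, and the labels state none. With the replicate block the log2 fold changes of PHGDH were −0.59, −0.75 and 0.16 and those of PSAT1 −0.99, −1.23 and 0.24. Counts over all genes moved most: over 25 settings those higher and lower ran from 57 to 709 and 34 to 630 with AKB (186 and 82 reported), 1 to 1931 and 14 to 1680 with pyruvate (139 and 126), and 6 to 980 and 0 to 1189 between them (264 and 162), the low pyruvate counts being those of the 8 libraries alone or without 1 library.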
